A study of Mus musculus with 8 samples.

Results

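In wild-type mesenchymal stem cells, 57 autosomal windows of 1 Mb each held 60 or more KDM4B peaks. These crowded windows were chosen by the KDM4B peak counts themselves. Each autosome was divided from its first base into fixed windows of 1 Mb, each peak was assigned to the window of its midpoint, and windows with at least 60 midpoints were kept, except chromosome 10 from 79 to 81 Mb. They contained 4239 peaks, or 13.2% of the 32017 KDM4B peaks of the library, and the count per window is therefore a description and not a finding. No window of chromosome 12, 13 or 18 was crowded, whereas chromosome 11 had 9 crowded windows and chromosome 4 had 6. This depended on the grid: shifted by 500 kb, windows of chromosome 12, with 60 peaks, and of chromosome 13, with 65 and 63, reached the minimum.

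The peak lists came from ChIP-seq (chromatin immunoprecipitation followed by sequencing) of primary mouse bone marrow mesenchymal stem cells, stromal cells with the capacity for bone, cartilage and fat formation, after 4 hours of osteogenic induction. WT cells came from Prx1Cre; Kdm4bw/w mice and KO cells from Prx1Cre; Kdm4bf/f mice, so both genotypes carried Cre recombinase driven by Prx1, a promoter active in limb mesenchyme, and the floxed Kdm4b alleles of KO cells are its target. KDM4B, H3K9me3 and total histone H3 were each mapped in 1 WT and 1 KO library. The series names KDM4B antibodies of 2 suppliers without saying which library used which. There were no replicates, so no difference between genotypes could be tested, and intervals given here cover counting error only. Sequencing depth is unknown for the KDM4B and H3K9me3 lists, and the number of peaks called depends on it. Positions are in mouse build mm9, and genes are not named because no annotation of that build was used here.

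KDM4B is a histone demethylase of the JmjC family that removes methyl groups from a lysine in the tail of histone H3. H3K9me3, the trimethylated form of that lysine and a substrate of the enzyme, is laid down by methyltransferases such as SETDB1 and SUV39H1 and marks repressed chromatin, where it is read by HP1 proteins. In mesenchymal stem cells KDM4B is known as a factor that favours osteogenic over adipogenic differentiation. The KO list held 55306 H3K9me3 peaks and the WT list 943, a difference of the whole libraries that lies behind each window comparison given here.

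The most crowded window lay on chromosome 7 from 87000001 to 88000000 and held 132 KDM4B peaks. It was followed by chromosome 3 from 95000001 with 115 peaks and the chromosome 19 window that ends at 12000000 with 106. Chromosome 19 from 5000001 held 95 peaks, chromosome 11 from 115000001 held 91, chromosome 16 from 91000001 held 90 and chromosome 10 from 127000001 held 89. The next were chromosome 5 from 136000001 with 88 peaks, chromosome 8 from 73000001 with 86 and chromosome 11 from 75000001 with 84, a count that chromosome 17 from 35000001 shared. The lowest, median and highest counts over the 57 windows were 60, 71 and 132, against a median of 9 in the other 2061 autosomal windows that held a peak of any list. The threshold fell in a continuous distribution. Just inside it, chromosome 3 from 88000001 and chromosome 6 from 113000001 held 60 peaks each. Just outside it, 4 windows held 59, on chromosome 6 from 83000001, chromosome 7 from 31000001 and from 134000001, and chromosome 13 from 55000001.

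Crowded windows adjoined each other in 5 places, each a pair. On chromosome 17 from 34000001 to 36000000 the windows held 79 and 84 KDM4B peaks, with 138 and 142 KO H3K9me3 peaks. On chromosome 19 from 4000001 to 6000000 they held 67 and 95, with 134 and 186 KO H3K9me3 peaks. On chromosome 10 from 126000001 to 128000000 they held 69 and 89, with 145 and 103. On chromosome 11 from 69000001 to 71000000 they held 61 and 71, with 151 and 62. On chromosome 3 from 88000001 to 90000000 they held 60 and 70, with 99 and 124. Each pair held at least 213 KO H3K9me3 peaks, and none of the 9 windows with fewer than 0.2 KO H3K9me3 peaks per KDM4B peak, described further on, was part of one.

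The spacing of KDM4B peaks within the windows comes from the list that chose them and is likewise a description, since more peaks per Mb leave shorter gaps. The median gap between neighbouring peaks of a crowded window was 1.23 kb, against 5.58 kb in the other autosomal windows, and 47.0% of the gaps were shorter than 1 kb, against 32.1%. When each window was cut into 10 intervals of 100 kb, 13 windows had peaks in all 10 and 5 windows had peaks in 5 or fewer, 1 of them chromosome 15 from 103000001, where the last peak of any list ends 381 kb into the window. The densest interval of a window held 10 to 40 peaks, or 16.4 to 54.5% of that window's peaks. The largest counts of 40 were on chromosome 3 from 79300001 to 79400000 and on chromosome 15 from 76000001 to 76100000. After peaks within 1 kb of each other were merged, the windows held 24 to 77 regions with a median of 38, and 2 of the 57 reached 60, chromosome 7 from 87000001 with 77 and chromosome 3 from 95000001 with 60. The merged median remained above that of all autosomal windows, which was 7.

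The peaks of crowded windows were similar in median width to the rest, with more wide ones. Their median width was 519 bp, against 507 bp for the 27102 KDM4B peaks of the other autosomal windows. Peaks of 1 kb or more made up 22.4% (95% exact binomial interval 21.2 to 23.7%), against 19.6% (19.1 to 20.1%). These wide peaks held 56.1% of the KDM4B-covered length in the crowded windows and 47.8% elsewhere. KDM4B peaks covered 4.00 to 13.1% of the sequence of a crowded window, with a median of 5.65%. The highest cover was on chromosome 19 from 5000001, which contained the widest peak of the set, 29.3 kb from 5821359 to 5850620. The next widest were 19.4 kb on chromosome 10 from 127023898 to 127043323, 17.3 kb on chromosome 11 from 75375770 to 75393083, 15.4 kb on chromosome 17 from 34245955 to 34261324 and 14.1 kb on chromosome 2 from 44959116 to 44973244. Width was taken from the same list that chose the windows and is given as a description.

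KO H3K9me3 was denser in the crowded windows than elsewhere, and its count ranged more widely between them than that of KDM4B, which the rule bounds from below. The 57 windows held 5423 KO H3K9me3 peaks, with 3 in the lowest window, 94 in the median and 251 in the highest. This was 95.1 per Mb (95% exact Poisson interval 92.6 to 97.7), against 23.7 (23.5 to 24.0) in the other autosomal windows, a ratio of 4.01 (3.90 to 4.12). Windows without a peak of any list are left out throughout, and counting them would lower the second value and raise the ratio. KDM4B density, which the rule fixed, differed by a ratio of 5.66, and the crowded windows had fewer KO H3K9me3 peaks per KDM4B peak, 1.28 against 1.81. The rule selects for a high KDM4B count, the denominator here, which lowers this measure by construction, so it is a description. Every one of the 57 windows held more KO than WT H3K9me3 peaks. Among the 2120 autosomal windows with a peak of any list 95.0% did so, and the count of 57 is close to that background. Across these 2120 windows the KDM4B and KO H3K9me3 counts had a Spearman correlation of 0.72 and a Pearson correlation of 0.63. Among the crowded windows alone the values were 0.08 and 0.02. These correlations are descriptions, since windows share libraries, mappability and base composition, and the crowded windows span a narrow range of KDM4B counts.

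**Figure D1:**
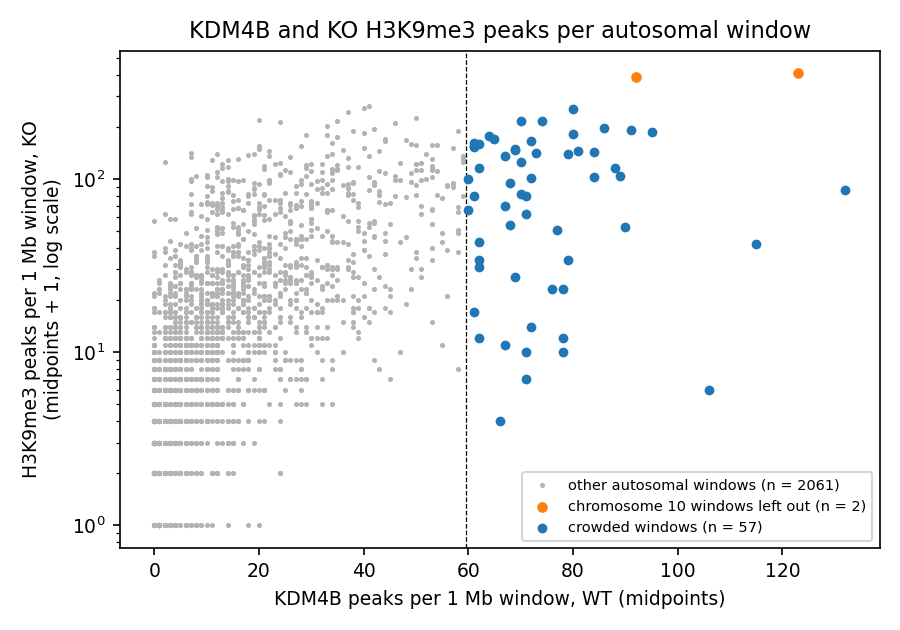
Each point is an autosomal window of 1 Mb, with its number of KDM4B peaks in WT cells on the x axis and its number of H3K9me3 peaks in KO cells plus 1 on the y axis (log scale). Right of the dashed line, the 57 crowded windows (blue) run from 3 to 251 KO H3K9me3 peaks, and the 2 chromosome 10 windows left out by the rule (orange) lie above them at 388 and 406.

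A KDM4B peak in a crowded window was covered by KO H3K9me3 about as often as one elsewhere. Of the 4239 peaks, 993 overlapped a KO H3K9me3 peak by at least 1 bp, or 23.4% (95% exact binomial interval 22.2 to 24.7%), and the share over all 31556 autosomal KDM4B peaks was 23.0%. In the other autosomal windows it was 22.7% (22.2 to 23.2%), a difference of 0.70 percentage points with an interval of -0.66 to 2.1. Windows just below the threshold, with 40 to 59 KDM4B peaks, gave 24.5% (23.4 to 25.6%), or 1.08 percentage points more than the crowded windows, with an interval of -2.76 to 0.60 for crowded minus these. On a window grid shifted by 500 kb the difference was 1.82 (0.44 to 3.22). When peaks within 1 kb of each other counted as overlapping, the shares were 38.5 and 34.2%, a difference of 4.31 percentage points (2.73 to 5.89). When KDM4B peaks within 1 kb were merged into regions, the shares were 32.0 and 28.0%, a difference of 4.01 (1.99 to 6.08). Intervals take no account of the dependence between neighbouring peaks.

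**Figure D2:**
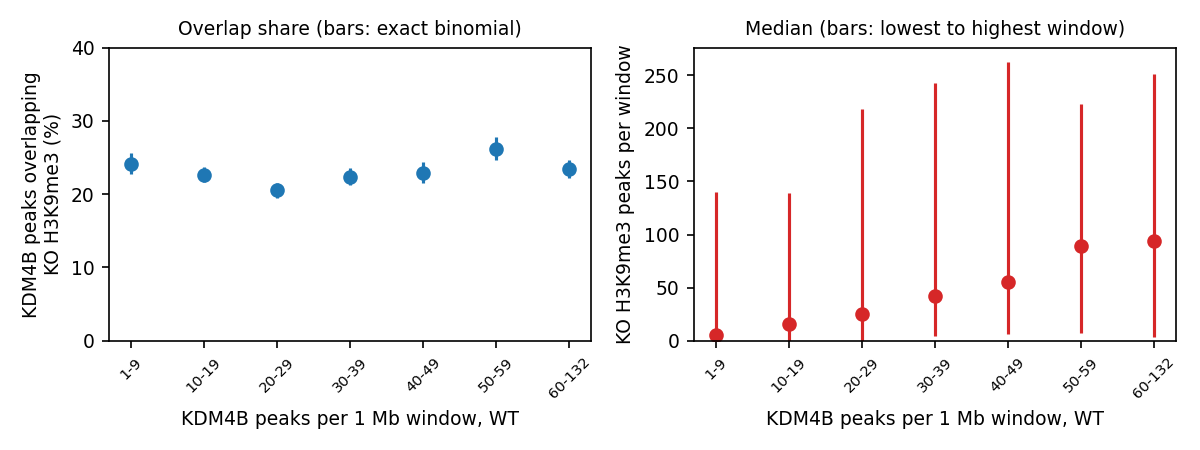
Autosomal windows are grouped on the x axes by their number of KDM4B peaks, without the 2 chromosome 10 windows. On the left, the share of KDM4B peaks overlapping KO H3K9me3 stays between 20.5 and 26.2% (bars, 95% exact binomial intervals); on the right, the median number of KO H3K9me3 peaks per window goes from 5 to 94 (bars, lowest to highest window).

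Width went with overlap in the same way inside and outside the crowded windows. Among peaks under 300 bp, 9.17% (7.26 to 11.4%) of those in crowded windows and 11.4% (10.6 to 12.3%) of those elsewhere overlapped KO H3K9me3. Among peaks of 1 kb to under 3 kb the shares were 41.1% (37.7 to 44.6%) and 40.3% (38.9 to 41.7%). At 3 kb or more they were 71.1% (62.4 to 78.8%) of 128 peaks and 69.2% (64.7 to 73.4%) of 454. The intervals of both groups overlapped in each of these classes. Several of the widest peaks contained more than 1 KO H3K9me3 peak. The chromosome 10 peak of 19.4 kb and the chromosome 2 peak of 14.1 kb each overlapped 7. The chromosome 17 peak of 15.4 kb overlapped 6, as did peaks on chromosome 11 from 69808296 to 69814949 and on chromosome 19 from 4282880 to 4288076. Of the 4239 peaks, 75, or 1.77%, overlapped 3 or more KO H3K9me3 peaks. Exactly 3 were overlapped by 1.16% of these peaks and by 0.528% of those in the other autosomal windows. For exactly 4 the shares were 0.354 and 0.137%. Members that overlapped KO H3K9me3 had a median width of 871 bp, and those that did not 459.5 bp. With overlap counted from 1 bp, a longer peak meets more KO H3K9me3 peaks by its length alone. The rise with width and these medians are therefore descriptions.

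Around the peak centres, the difference between crowded and other windows lay in the surroundings. Within 500 bp of the KDM4B midpoint there were on average 129 KO H3K9me3 midpoints per 1000 KDM4B peaks in each 500 bp interval for crowded windows, and 123 for the others. At 8 to 10 kb from the midpoint the values were 67.2 and 30.03. The centre was 1.93 times the surroundings in crowded windows and 4.09 times elsewhere. The rule selects closely packed KDM4B peaks, so the surroundings of a member more often hold other KDM4B peaks. The values at 8 to 10 kb, these ratios and the distances that follow are therefore descriptions. The median distance from a KDM4B peak to the nearest KO H3K9me3 peak was 2.57 kb in crowded windows and 4.44 kb elsewhere, and 3.09 and 7.14% of the peaks had none within 100 kb. By length, KO H3K9me3 peaks covered 10.4% of the KDM4B-bound sequence both in crowded windows and in the others, and 2.50 and 0.632% of the remaining sequence. In 56 of the 57 windows the KDM4B-bound sequence was more often under KO H3K9me3 than the remaining sequence of that window. The exception, chromosome 3 from 60000001, had no bound base under a KO H3K9me3 peak. This direction was not particular to crowded windows. By summed length, the ratio of bound to remaining cover was 4.17 in crowded windows and 16.4 in the others. Seen from the mark, 23.8% (22.7 to 24.9%) of the KO H3K9me3 peaks in crowded windows overlapped a KDM4B peak, against 14.8% (14.5 to 15.1%) elsewhere and 15.8% over all autosomes. The rule, which selects windows with more KDM4B-covered sequence, raises this share by its construction.

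**Figure D3:**
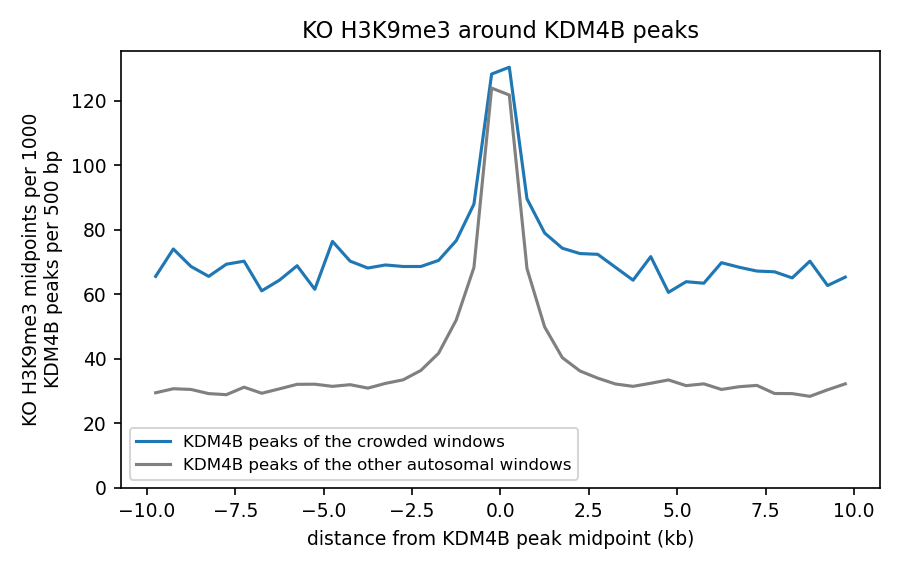
Mean number of KO H3K9me3 peak midpoints per 500 bp interval (y axis, per 1000 KDM4B peaks) against distance from the KDM4B peak midpoint in kb (x axis). Both lines reach similar heights at the centre, 129 and 123 on average within 500 bp, while the flanks at 8 to 10 kb lie at 67.2 for crowded windows (blue) and 30.03 for the other autosomal windows (grey).

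The average share of 23.4% hid a wide spread between windows. The share of KDM4B peaks overlapping KO H3K9me3 went from 0% in the lowest window to a median of 24.3% and a highest value of 56.3%. In 18 windows the 95% interval lay wholly below the autosomal share and in 15 wholly above it, and in 24 it contained that share. The windows were ordered by the number of KO H3K9me3 peaks per KDM4B peak, a measure taken after the values were seen. It was 1 or more in 34 windows, from 0.2 to under 1 in 14, and under 0.2 in 9. Since KO H3K9me3 counts define this order, the overlap shares along it are a description.

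**Figure D4:**
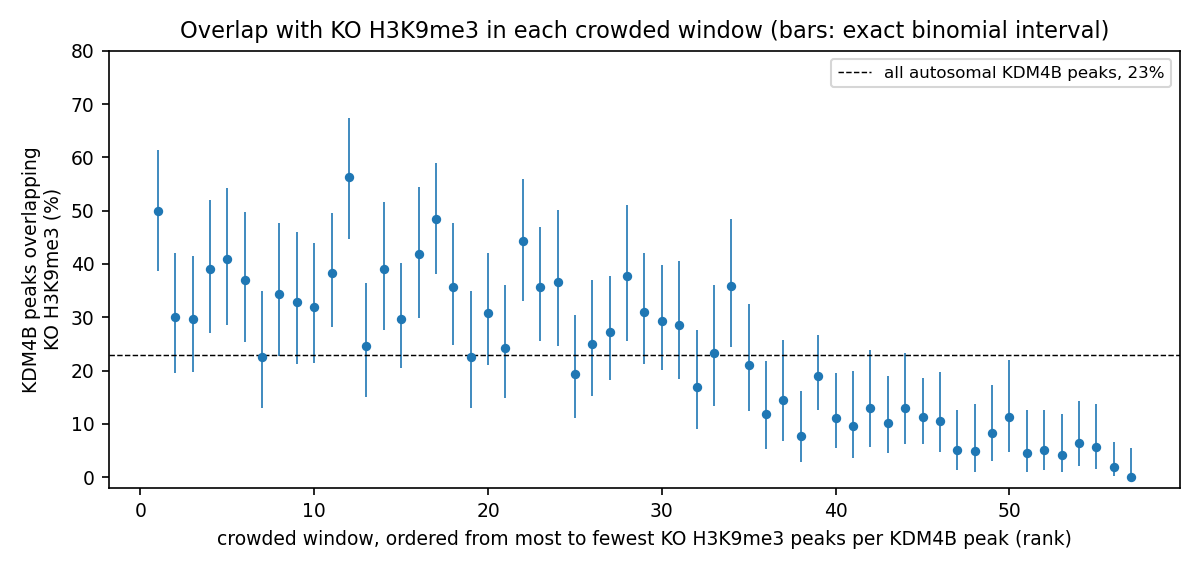
Share of KDM4B peaks overlapping a KO H3K9me3 peak (y axis, %; bars, 95% exact binomial intervals) in each of the 57 crowded windows, ordered on the x axis from the most to the fewest KO H3K9me3 peaks per KDM4B peak. Values run from 56.3% to 0%, on both sides of the dashed line at the autosomal share of 23.0%.

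At the upper end, KO H3K9me3 peaks outnumbered KDM4B peaks by up to 3.14 to 1. Chromosome 7 from 52000001 held 80 KDM4B and 251 KO H3K9me3 peaks, and 40 of the 80 KDM4B peaks, or 50% (38.6 to 61.4%), overlapped one. Its neighbours on both sides held 138 and 127 KO H3K9me3 peaks but only 12 and 11 KDM4B peaks. Chromosome 15 from 78000001 held 70 KDM4B and 214 KO H3K9me3 peaks, chromosome 2 from 167000001 held 74 and 215, chromosome 2 from 32000001 held 64 and 175, and chromosome 11 from 97000001 held 61 and 160. In these 4 windows 29.7 to 41.0% of the KDM4B peaks overlapped KO H3K9me3. None of these 5 windows held a WT H3K9me3 peak. The highest overlap share, 56.3% (44.7 to 67.3%), belonged to chromosome 15 from 76000001, with 80 KDM4B and 181 KO H3K9me3 peaks.

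At the lower end, 9 windows with 62 to 106 KDM4B peaks held only 3 to 13 KO H3K9me3 peaks each. Together they had 671 KDM4B peaks, 77 KO and 0 WT H3K9me3 peaks, and 34 of the KDM4B peaks, or 5.07% (3.53 to 7.01%), overlapped KO H3K9me3. Of the few KO H3K9me3 peaks, 40 of 77, or 51.9% (40.3 to 63.5%), overlapped KDM4B, against 23.8% over all crowded windows. Choosing windows by few KO H3K9me3 peaks per KDM4B peak bears on this share, which is a description. The chromosome 2 peak from 44959116 to 44973244 alone overlapped 7 KO H3K9me3 peaks, and the interval takes no account of such clusters. KO H3K9me3 covered a median of 2.54% of the KDM4B-bound sequence of these 9 windows and 0.154% of their remaining sequence. Their median of 9 KO H3K9me3 peaks follows from their choice by few KO peaks per KDM4B peak, and it was close to the median of 10 in the other autosomal windows, where counts ran from 0 to 263. Their KDM4B peaks covered a median of 5.51% of the sequence, close to the 5.78% of the 34 windows with 1 or more KO H3K9me3 peak per KDM4B peak. The KDM4B peaks were also more tightly packed: the median share held by the densest 100 kb was 40.8% in these 9 windows and 28.7% in those 34. The ranges of this share overlapped, at 23.6 to 54.5% and 16.4 to 50%. The median number of 100 kb intervals with a KDM4B peak was 6 and 8.

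The chromosome 19 window that ends at 12000000 was the third most crowded window and had 5 KO H3K9me3 peaks for 106 KDM4B peaks, a ratio of 0.0472. The 5 peaks, 221 to 490 bp wide, lay near the ends of the window. Between 11055521 and 11892968, a stretch of 837 kb, no KO H3K9me3 peak was called, while 97 of the 106 KDM4B peaks lay there. It was the longest such stretch in any crowded window, and the next longest, 608 kb on chromosome 2 from 44174905, held 3 KDM4B peaks. The KDM4B peaks of the chromosome 19 window were not unusually narrow, with a median width of 462 bp and a widest peak of 4.99 kb from 11394092 to 11399076, whose nearest KO H3K9me3 peak was 339 kb away. Only 2 peaks overlapped KO H3K9me3, at 11892790 to 11893277 and at 11986961 to 11987419, or 1.89% (0.229 to 6.65%). The window before it, from 10000001, held 53 KDM4B and 130 KO H3K9me3 peaks, and the window after it held 55 and 10. KO H3K9me3 peaks were thus many in the window before and few in this window and the next, while KDM4B peaks were common in each. Where exactly the scarcity set in was not examined.

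Chromosome 3 from 60000001 was lower still by the same ratio, with 66 KDM4B and 3 KO H3K9me3 peaks. None of the 66 overlapped KO H3K9me3, and 3 peaks, taken as the limit for a count of 0, would be 4.55%. Of its KDM4B peaks, 36, or 54.5%, lay in the 100 kb from 60300001, and the widest measured 4.60 kb from 60275704 to 60280307. The closest KO H3K9me3 peak, of 199 bp, lay 2 bp from a KDM4B peak, so this window moves from 0 with a looser definition of overlap. Its neighbours held 12 and 14 KDM4B peaks and 1 and 3 KO H3K9me3 peaks. Chromosome 7 from 97000001 had 71 KDM4B and 6 KO H3K9me3 peaks, the chromosome 3 window that ends at 80000000 had 78 and 9, and chromosome 15 from 6000001 had 71 and 9. In these windows 4, 5 and 3 KDM4B peaks overlapped KO H3K9me3. Their neighbouring windows held 1 to 21 KDM4B peaks and 0 to 9 KO H3K9me3 peaks, against medians of 9 and 10 in the other autosomal windows.

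**Figure D5:**
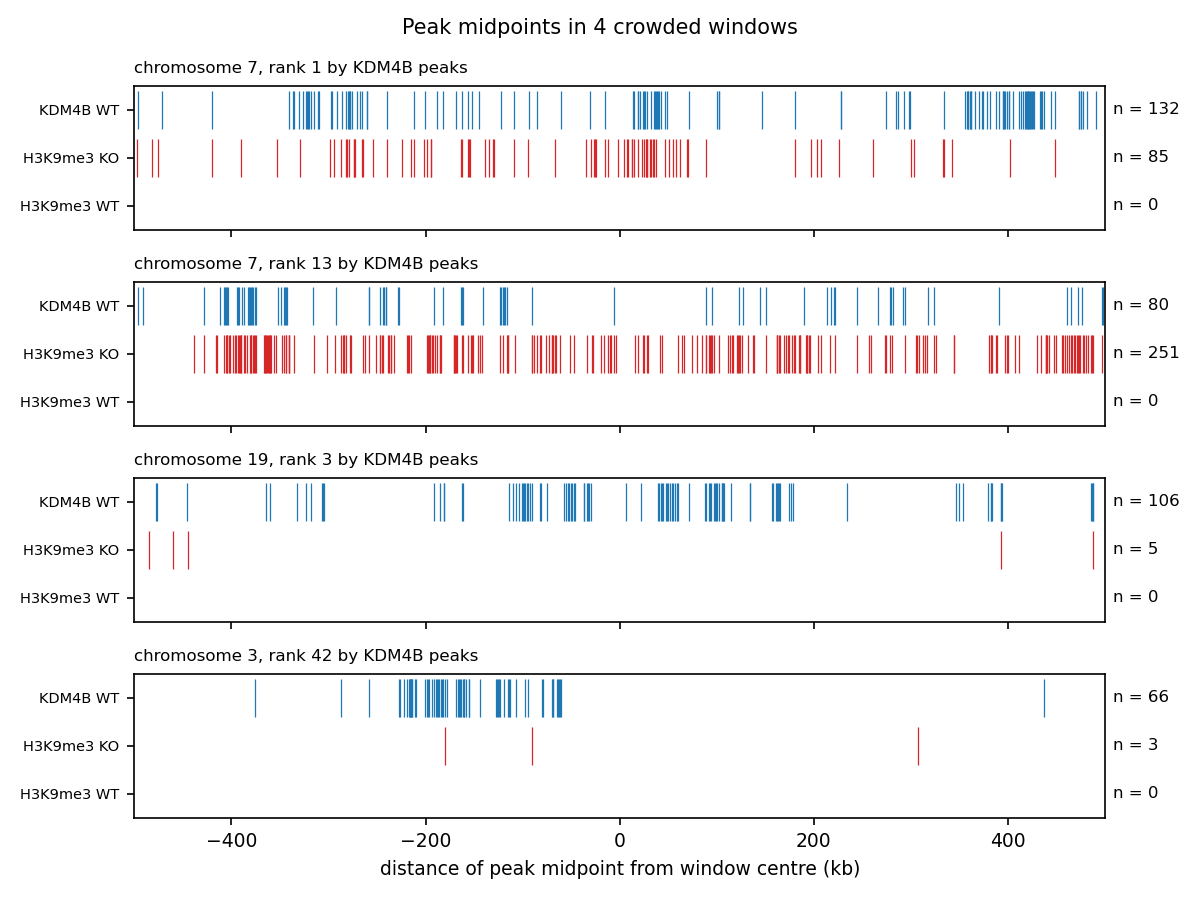
Midpoints of KDM4B WT, H3K9me3 KO and H3K9me3 WT peaks in 4 crowded windows, drawn as ticks by distance from the window centre in kb. The windows are chromosome 7 from 87000001 (most KDM4B peaks), chromosome 7 from 52000001 (most KO H3K9me3 peaks), the chromosome 19 window that ends at 12000000 and chromosome 3 from 60000001; in the last 2, with 5 and 3 KO H3K9me3 peaks, most KDM4B blocks have none beside them, and no window of the 4 has a WT H3K9me3 peak.

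In most crowded windows, the most tightly packed KDM4B peaks were less often under KO H3K9me3 than the others. In the densest 100 kb interval of each window, summed over windows, 261 of 1375 KDM4B peaks overlapped KO H3K9me3, or 18.98% (16.9 to 21.2%), against 732 of 2864, or 25.6% (24.0 to 27.2%), in the rest of the same windows. The share was lower in the densest interval in 45 of the 57 windows. The summed shares, also those by width below, mix windows unequally and can overstate the gap within a window. The densest interval held a median of 40.8% of the KDM4B peaks in the 9 windows with fewest KO H3K9me3 peaks per KDM4B peak. In the 34 windows with 1 or more it held 28.7%. Summed over windows, KO H3K9me3 peaks themselves were not sparser there, at 13.2 per 100 kb (12.3 to 14.2) in the densest intervals and 9.22 (8.95 to 9.48) outside them. This sum also mixes windows unequally and does not hold for each window. In 18 windows the densest interval held 3 or fewer KO H3K9me3 peaks, and in 4 of these it held 0. The difference was present among peaks of 1 kb or more, at 36.7% (31.5 to 42.1%) and 49.7% (45.7 to 53.7%), and among narrower ones, at 13.4% (11.4 to 15.6%) and 18.9% (17.3 to 20.6%). In the most crowded window, on chromosome 7, the 30 KDM4B peaks between 87900001 and 88000000 had 2 KO H3K9me3 peaks among them, and the other 102, spread over the rest of the window, had 83. On chromosome 4 from 116300001 to 116400000, 32 KDM4B peaks had 0, whereas the other 30 of that window had 42. On chromosome 15 from 76000001 to 76100000 the relation was the other way, with 26 of 40 KDM4B peaks overlapped inside the densest interval and 19 of 40 outside it. The densest interval was picked for its KDM4B count, which lowers KO H3K9me3 peaks per KDM4B peak there by construction. Counts for the rest of a window also cover a longer stretch. The contrasts between the densest interval and the rest are therefore descriptions. These intervals were compared after the values had been seen, and with 1 library per antibody and genotype the difference has no replicate check.

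WT H3K9me3 was rare in the crowded windows and lay in few of them. The 57 windows held 17 WT H3K9me3 peaks, or 0.298 per Mb (0.174 to 0.478), against 0.369 (0.343 to 0.396) in the other autosomal windows, a ratio of 0.81 (0.47 to 1.30). The direction turned on a window grid shifted by 500 kb, where the ratio was 3.0 (2.27 to 3.91) and 47 of 60 WT peaks lay in a single window on chromosome 1, from 89500001, without which it was 0.62. On the grid used throughout, the 17 peaks lay in 8 windows, or 14.0% of the 57. Of the autosomal windows with a peak of any list, 14.9% had at least 1. Chromosome 4 from 141000001 and chromosome 15 from 76000001 held 4 each, chromosome 4 from 134000001 held 3 and chromosome 1 from 173000001 held 2. Chromosome 5 from 115000001, chromosome 8 from 73000001, chromosome 11 from 70000001 and chromosome 17 from 34000001 held 1 each. Of the 17 peaks, 6 overlapped a KO H3K9me3 peak and 6 overlapped a KDM4B peak.

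Of the 4239 KDM4B peaks, 7 overlapped WT H3K9me3, or 0.165% (0.0664 to 0.340%), and the share over all autosomal KDM4B peaks was 0.0507%. Of these 7, 5 lay next to each other on chromosome 15 between 76005896 and 76011754, and each of the 5 also overlapped KO H3K9me3. The others were on chromosome 1 from 173816741 to 173817217, 121 kb from the nearest KO H3K9me3 peak, and on chromosome 4 from 141027673 to 141027955, 1.29 kb from one. Without the chromosome 15 window the share was 0.0481% (0.00582 to 0.174%), so the value above background rested on that cluster. The KDM4B list of KO cells, with 35 peaks, and the H3 lists of WT and KO cells, with 38 and 28 peaks, had 0 peaks in the crowded windows. The crowded windows are 57 of the 2120 autosomal windows with a peak of any list. From lists this short, a count of 0 there therefore carries little information.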

How the data were processed

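ChIP-seq peak lists of 6 libraries were used, 1 per antibody and genotype. The 2 input samples were not analysed here as peak lists. The submitters' processing notes name Bowtie and SAMtools, with MACS for the KDM4B lists and MACS2 for the H3K9me3 and H3 lists. The deposited KDM4B and H3K9me3 files give only the chromosome, start and end of each peak, with no score, so peaks could not be ranked by strength or held to a stricter threshold. Per the file headers, the H3 WT list came from MACS2 2.1.4 and 40420466 filtered tags. Use of the yeast spike-in, the thresholds and the depth of the KDM4B and H3K9me3 libraries are unknown here. More reads or a looser threshold would lengthen a list.

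The submitters' processing notes list mm9 and hg19. The last peak on chromosome 7 ends at 152508057, whereas the GRCm38.p6 gene table stops at 145324059 there, so that table was not used, and planned gene and sequence descriptions were not made. Starts in the BED files were converted to count from 1.

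Windows, overlaps of at least 1 bp, and distances between peak edges were obtained with scripts (Python 3.11.15, numpy 2.4.6, scipy 1.17.1) tested on simulated data, and bedtools 2.31.1 gave equal overlap counts in 4 of 4 comparisons. Figures were drawn with matplotlib 3.10.9. Shares carry exact binomial (Clopper-Pearson) 95% intervals, densities exact Poisson intervals, ratios intervals from the exact binomial share of the summed counts, and differences of shares an interval combined from both exact ones. Where a count was 0, 3 counts were taken as its upper limit. Windows and peaks are not replicates, so no test was run. The regions, lists and rules were chosen with earlier results of these data known. Regions named were the 10 most crowded windows, the 5 highest and 5 lowest by KO H3K9me3 per KDM4B peak, adjoining windows, windows with WT H3K9me3, windows at 60 and 59 peaks, the 5 widest members, the 5 overlapping the most KO peaks and all members overlapping WT H3K9me3. The named 100 kb intervals and peak-free stretches were picked after their values were seen. Alternatives were another window grid, minimum, merging distance, overlap and width limit, and keeping the chromosome 10 windows. Leaving out the chromosome 15 window, and 1 shifted window, were chosen after seeing the data.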

Additional observations from a re-analysis of the deposited data

How the results depend on the processing

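Both the choice of windows and several values within them depended on the settings. A minimum of 50 KDM4B peaks gave 113 windows with 7262 peaks and a minimum of 70 gave 33 with 2703. Merging KDM4B peaks within 1 kb before counting left 2 windows with 137 regions. A grid shifted by 500 kb gave 58 windows, of which 43 touched one of the original 57, and the sets shared 56.9% of the original and 56.0% of the shifted member peaks.

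The share of members overlapping KO H3K9me3 was 25.0% with the chromosome 10 windows kept, 19.6% when 50% of the shorter peak had to be shared, 38.5% within 1 kb, 32.0% with KDM4B peaks merged and 20.9% without H3K9me3 peaks of the smallest width, 199 bp. For the other autosomal peaks the last 4 settings gave 19.1, 34.2, 28.0 and 20.6%. The difference between both groups was positive under every setting tried and was 1.82 percentage points on the shifted grid, 2.28 percentage points with a minimum of 50, 2.31 with the chromosome 10 windows kept, 4.31 within 1 kb and 4.01 with peaks merged. Its interval included 0 as reported, with a minimum of 70, with 50% overlap and without the narrowest peaks.

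The ratio of KO H3K9me3 density to the other windows was 4.24 on the shifted grid, 4.13 with a minimum of 50, 4.19 without the narrowest peaks and 3.54 with H3K9me3 peaks merged. KO H3K9me3 peaks per KDM4B peak in crowded windows were 1.34 on the shifted grid, 1.41 and 1.21 with minimums of 50 and 70, and 1.64 with both lists merged, where the other windows gave 2.01. On the shifted grid 24.4% of members were 1 kb or wider. The WT H3K9me3 density ratio rose from 0.81 to 3.0 on the shifted grid, because chromosome 1 from 89500001 to 90500000, with 61 KDM4B and 47 of 60 WT H3K9me3 peaks, then counted as crowded; without it the ratio was 0.62. The share overlapping WT H3K9me3 was 0.0481% without the chromosome 15 window. No paired analysis was possible because each group has 1 library. Depth is unknown for these lists, so an absent peak does not show an absent mark.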
